A study of Mus musculus with 2 samples.

Results

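This account follows 10 genes that mark astrocytes or carry out their uptake of glutamate, namely Gfap, S100b, Aqp4, Slc1a2, Slc1a3, Glul, Gja1, Gjb6, Pla2g7 and Fgfr3, of 18193 genes named on the array. They were followed through every probe set whose only gene symbol in the platform annotation was one of these names, which gave 31 probe sets. The samples were 2 pools of cerebral cortex RNA, each mixed in equal parts from 3 male mice aged 4 weeks of a 129/B6 background and hybridised to 1 Affymetrix expression array. One pool was titled Gnmt knockout and the other wild-type. The genotype entry of the sample titled KO reads wild-type, so the titles alone name the pools here, as KO and wild-type. Gnmt encodes glycine N-methyltransferase, which uses S-adenosylmethionine to methylate glycine. The deleted part of the gene, and the cells that lack it, were not analysed here.

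Astrocytes are the glial cells that support neurons and blood vessels in the cortex. They clear glutamate from the synapse with the transporters GLT-1 (Slc1a2) and GLAST (Slc1a3), and glutamine synthetase (Glul) turns that glutamate into glutamine, which is passed back to neurons. Water channels (Aqp4) sit at their endfeet on vessels, connexins (Gja1, Gjb6) couple neighbouring astrocytes, and Gfap builds their intermediate filaments.

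Values are signals in linear intensity units, 1 per probe set and array. Measured probe sets are those with at least 64.2 units on both arrays, a floor set at the 40th percentile of all signals other than controls. Log2 ratios set the KO pool over the wild-type pool, centred on their median over measured probe sets. With 1 array per pool there was no replicate, so no ratio was tested and each describes these 2 pools alone. Higher and lower in a count mean a difference of 1.5-fold or more. The SD of the error between probe sets of the same gene was 0.58 on the log2 scale (1.49-fold), which leaves out the spread between mice. The median signal over all probe sets was 124.9 units in the KO pool and 92.0 units in the wild-type pool. Gnmt, with 1 probe set, had 21.5 units in the KO pool and 10 units in the wild-type pool, both below the floor, so the targeted gene did not check the titles.

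All 10 genes were measured in both pools. By the brightest probe set of each gene, 5 had a signal at least 1.5-fold lower in the KO pool, 0 were higher and 5 lay within 1.5-fold. Over all 12244 measured genes, 18.2% were that much lower and 12.5% that much higher. These shares are the background for each count of genes in a list below. The median log2 ratio of the 10 genes was -0.49, against -0.06 over all measured genes. It lies in a gap, since the genes ran from -1.39 (Pla2g7) to 0.41 (Fgfr3) and the middle values were -0.70 (Slc1a3) and -0.28 (Gjb6). At 2-fold, 4 of the 10 genes were lower, Pla2g7, Gfap, S100b and Aqp4, against 6.75% of all measured genes. By the second brightest probe set, which 8 of the genes had, 2 were lower and 2 higher and the median was 0.31. Among all 5375 genes with such a probe set, that reading put 19.1% at least 1.5-fold lower and 19.4% higher. The middle log2 ratio of those 5375 genes was -0.01. With quantile normalization the median of the 10 genes was -0.32. For the lower genes, fewer astrocytes and less RNA per astrocyte cannot be told apart in bulk tissue, and other causes were not tested.

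**Figure D1:**
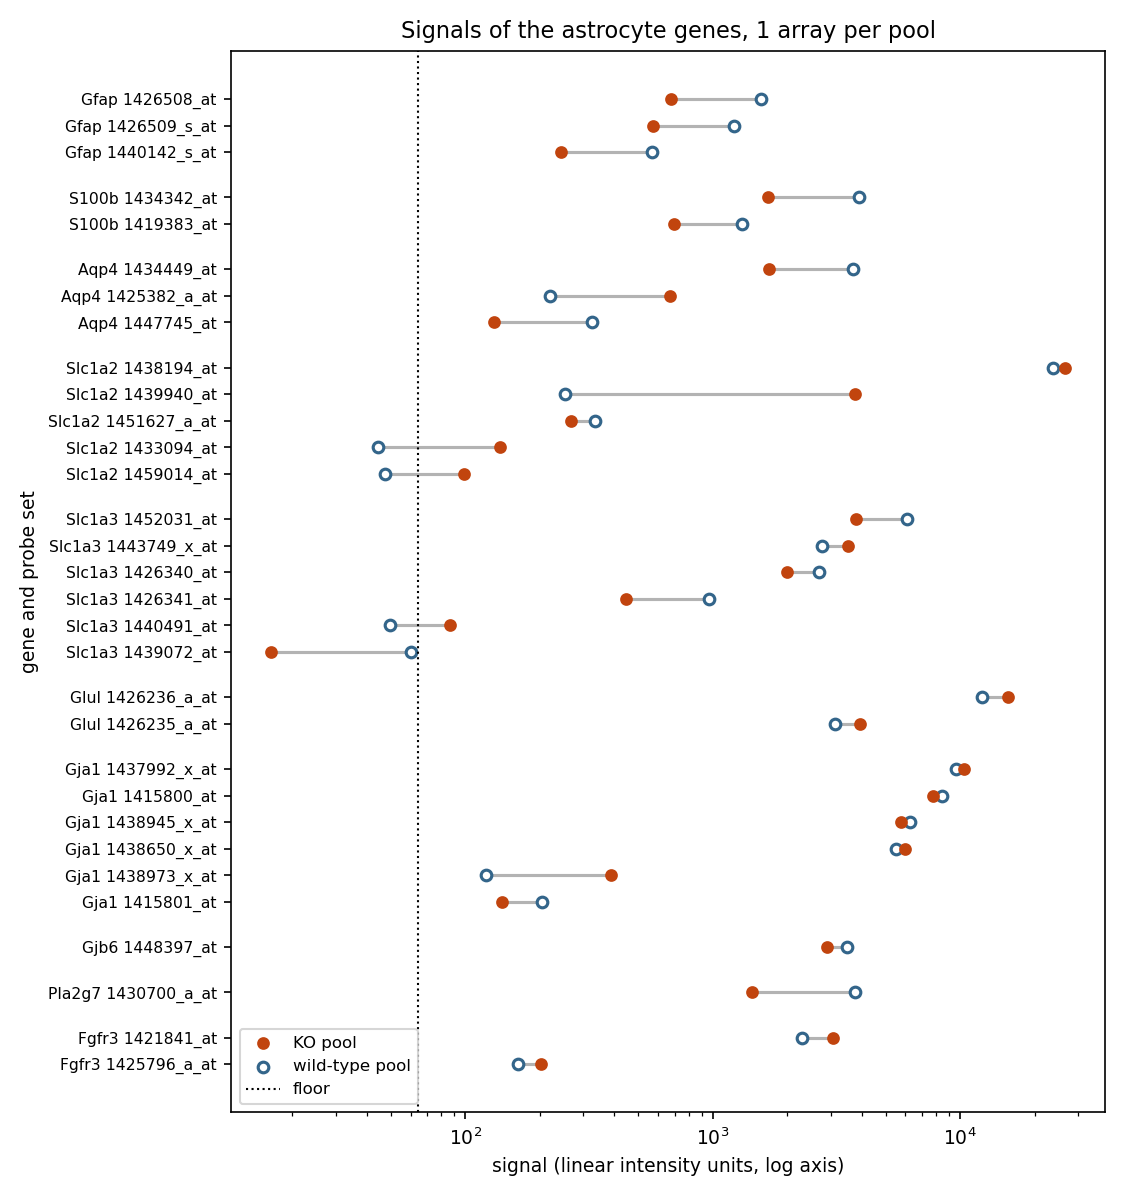
Signal of each of the 31 probe sets of the 10 genes in linear intensity units on a log axis, with filled points for the KO pool, open points for the wild-type pool and a dotted line at the floor of 64.2 units. The filled points lie left of the open ones for every probe set of Gfap, S100b and Pla2g7, and far right for Slc1a2 probe set 1439940_at.

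The promoters of 3 genes that were lower by each of their probe sets, Gfap, S100b and Pla2g7, are shown beside that of Slc1a2, whose brightest probe set was within 1.5-fold. Each is the 250 bases before the start site, 5′ to 3′ on the gene's strand, from RefSeq in build GRCm38.p6, and 9 of the 10 genes had an entry in that table. Aqp4 had none. Capitals mark matches to any of 6 motifs, searched on both strands: the nuclear factor I site TTGGCA, the STAT motif TTCNNNGAA, the AP-1 motif TGANTCA, the TATA box TATAAA, the cyclic AMP response element TGACGTCA and the E-box CACGTG.
Gfap, chr11:102897201-102897450, minus strand: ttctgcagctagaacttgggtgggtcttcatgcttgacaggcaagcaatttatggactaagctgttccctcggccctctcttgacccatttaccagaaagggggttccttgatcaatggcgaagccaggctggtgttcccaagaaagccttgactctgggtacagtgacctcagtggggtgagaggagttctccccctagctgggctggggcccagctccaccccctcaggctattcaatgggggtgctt
S100b, chr10:76253586-76253835, plus strand: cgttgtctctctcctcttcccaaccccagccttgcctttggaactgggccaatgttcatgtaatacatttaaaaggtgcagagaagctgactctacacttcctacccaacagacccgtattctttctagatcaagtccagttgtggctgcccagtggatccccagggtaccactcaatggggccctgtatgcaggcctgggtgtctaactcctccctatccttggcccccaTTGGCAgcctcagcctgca
Pla2g7, chr17:43568201-43568450, plus strand: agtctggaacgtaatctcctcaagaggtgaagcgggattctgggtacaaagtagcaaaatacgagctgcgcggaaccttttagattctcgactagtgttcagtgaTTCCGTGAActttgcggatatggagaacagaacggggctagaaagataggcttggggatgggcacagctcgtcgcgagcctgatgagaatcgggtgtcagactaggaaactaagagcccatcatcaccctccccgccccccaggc
Slc1a2, chr2:102706188-102706437, plus strand: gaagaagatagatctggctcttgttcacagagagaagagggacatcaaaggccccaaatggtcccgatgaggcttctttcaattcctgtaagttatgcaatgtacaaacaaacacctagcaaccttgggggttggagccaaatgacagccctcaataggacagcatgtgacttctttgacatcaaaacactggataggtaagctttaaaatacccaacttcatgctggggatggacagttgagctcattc

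The S100b window held 1 nuclear factor I site, 19 to 14 bases before the start, a motif present in 12.3% of 32851 promoter windows of the same length. The Pla2g7 window held 1 STAT motif, 145 to 137 bases before the start, present in 7.02% of windows. The Gfap and Slc1a2 windows held none of the 6 motifs in these letters. The AP-1 motif was in 6.75% of windows, the TATA box in 12.4%, the cyclic AMP response element in 1.55% and the E-box in 6.02%. The Pla2g7 window had 14 CpG dinucleotides, against 2 in Gfap, 2 in S100b and 1 in Slc1a2, with a median of 6 over all windows. Of the windows not printed, that of Slc1a3 held a STAT motif 96 to 88 bases before the start and a TATA box 161 to 156 bases before it, and that of Gja1 held an AP-1 motif 19 to 13 bases before it. No motif was shared by Gfap, S100b and Pla2g7. The STAT motif was in the windows of Pla2g7 and Slc1a3 and not in those of Gfap and S100b. Whether any motif bears on the ratios was not tested.

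Gfap, which encodes an intermediate filament protein of astrocytes, was lower in the KO pool by all 3 of its probe sets. The brightest gave 674.5 units in the KO pool and 1567.1 units in the wild-type pool, a 2.34-fold difference and a log2 ratio of -1.23. The second gave 572.9 units in the KO pool and 1212.0 units in the wild-type pool, and the third 243.4 units in the KO pool and 566.5 units in the wild-type pool. Their log2 ratios, -1.23, -1.09 and -1.23, spanned 0.14, less than the probe set error. The brightest and the second are annotated to the same source sequence, so they are not fully separate readings. Gfap lay at percentile 3.9 of the ratios of all measured genes.

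S100b, which encodes a calcium-binding protein made by astrocytes and also by some oligodendrocytes, was lower by both probe sets. The brighter gave 1669.9 units in the KO pool and 3881.3 units in the wild-type pool, a log2 ratio of -1.23 and 2.34-fold. The other gave 697.3 units in the KO pool and 1308.2 units in the wild-type pool, a log2 ratio of -0.92. Both S100b probe sets thus lay on the same side as those of Gfap.

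Pla2g7 had the lowest ratio of the 10 genes. It encodes a secreted phospholipase that inactivates platelet-activating factor. Its single probe set gave 1435.6 units in the KO pool and 3738.1 units in the wild-type pool, 2.63-fold lower with a log2 ratio of -1.39, at percentile 2.6 of all measured genes. With 1 probe set, no second reading of Pla2g7 stands beside it. Pla2g7 lies on chromosome 17, as does Gnmt. Whether sequence linked to the targeted gene bears on the Pla2g7 ratio was not tested. Of 7 other measured genes that make, degrade or sense platelet-activating factor, or take part in the enzymes that do, 1 was lower and 2 were higher. Pafah1b3, a catalytic subunit of the intracellular acetylhydrolase, had 190.8 units in the KO pool and 445.5 units in the wild-type pool, 2.35-fold lower. Pafah2, another acetylhydrolase of the same substrate, was 2.15-fold higher with 464.3 units in the KO pool and 214.0 units in the wild-type pool. Lpcat1, a lysophospholipid acyltransferase, was 2.63-fold higher by its brightest probe set (log2 ratio 1.39), and its 3 probe sets ran from -0.12 to 2.03.

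Aqp4, the water channel of astrocyte endfeet, gave 2 probe sets that were lower and 1 that was higher. Its brightest gave 1690.6 units in the KO pool and 3677.6 units in the wild-type pool, a log2 ratio of -1.13 (2.19-fold). The dimmest, with 130.4 units in the KO pool and 324.1 units in the wild-type pool, had -1.33. Probe set 1425382_a_at went the other way, with 669.1 units in the KO pool and 219.5 units in the wild-type pool, 3.02-fold higher and a log2 ratio of 1.60. Aqp4 was the only one of the 10 genes with measured probe sets at least 1.5-fold apart in both directions. Of 5375 genes with several measured probe sets, 5.75% had such a pair. The span between the Aqp4 ratios was 2.92, and 139 of those 5375 genes (2.59%) had a span at least as wide, where the median span was 0.61.

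Most other genes of the endfoot complex lay within 1.5-fold. Of 12 measured genes in a list of channels, scaffold and matrix proteins found there, 2 were lower and 1 was higher, and their median log2 ratio was 0.03. Kcnj10, the inward rectifier potassium channel of astrocytes, had 1095.0 units in the KO pool and 1716.4 units in the wild-type pool, a log2 ratio of -0.66. Lama2, a laminin chain, had -0.63, and Agrn, the matrix proteoglycan agrin, had 0.89. Dag1, the dystroglycan gene that anchors the complex to laminin, had -0.08, with probe sets up to 1.97.

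The transporters Slc1a2 and Slc1a3 differed from each other in ratio, and each had probe sets that disagreed. The brightest Slc1a2 probe set gave 26501.5 units in the KO pool and 23617.1 units in the wild-type pool, a log2 ratio of 0.15 and 1.11-fold. Probe set 1451627_a_at, with 267.5 units in the KO pool and 333.5 units in the wild-type pool, had -0.33. Neither was 1.5-fold apart. Probe set 1439940_at gave 3757.1 units in the KO pool and 253.8 units in the wild-type pool, 14.7-fold higher with a log2 ratio of 3.88. Only 18 of 20967 measured probe sets with 1 gene symbol, this one included, had a ratio that high or higher. The remaining Slc1a2 probe sets were below the floor in the wild-type pool. Probe set 1433094_at gave 138.0 units in the KO pool and 44.2 units in the wild-type pool, at least 2.13-fold higher when the floor stands in for the wild-type signal. Probe set 1459014_at gave 98.6 units in the KO pool and 47.3 units in the wild-type pool, at least 1.52-fold higher. The 3 measured Slc1a2 ratios spanned 4.21, a width reached by 17 of the 5375 genes with several measured probe sets (0.316%).

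Slc1a3 was lower by its brightest probe set, with 3780.3 units in the KO pool and 6076.8 units in the wild-type pool, a log2 ratio of -0.70 (1.62-fold). Probe set 1426341_at, with 443.7 units in the KO pool and 963.8 units in the wild-type pool, had -1.13, and 1426340_at, with 1991.1 units in the KO pool and 2677.4 units in the wild-type pool, had -0.44. Probe set 1443749_x_at had 3527.7 units in the KO pool and 2756.7 units in the wild-type pool, a log2 ratio of 0.34. The suffix _x marks probe sets that may also bind other transcripts. Slc1a3 was thus below 0 by 3 of 4 measured probe sets, and its median of -0.57 lay just within 1.5-fold. Probe set 1440491_at gave 87.0 units in the KO pool and 49.4 units in the wild-type pool, past the floor only in the KO pool and at least 1.34-fold higher there. Probe set 1439072_at was below the floor in both pools, with 16.4 units in the KO pool and 60.2 units in the wild-type pool.

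Glul, which encodes glutamine synthetase, was slightly higher in the KO pool by both probe sets and stayed within 1.5-fold. The brighter gave 15525.4 units in the KO pool and 12280.7 units in the wild-type pool, a log2 ratio of 0.33. The other gave 3941.0 units in the KO pool and 3126.9 units in the wild-type pool, a log2 ratio of 0.32. Both differences were smaller than the probe set error.

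Most other genes of the glutamate and glutamine cycle lay within 1.5-fold, as 17 of 19 measured genes did. Their median log2 ratio was 0.06, with 1 gene lower and 1 higher. Slc25a18, a glutamate carrier of the mitochondrial membrane, had 1192.5 units in the KO pool and 2083.9 units in the wild-type pool, 1.76-fold lower. Slc7a11, the cystine-glutamate exchanger that releases glutamate from astrocytes, had 894.2 units in the KO pool and 203.8 units in the wild-type pool, 4.35-fold higher, with its other probe set at 1.15. Slc38a1, a glutamine carrier of neurons, had 0.55, with another probe set at 3.30. Slc38a3, the glutamine exporter of astrocytes, had -0.37, with another probe set at 0.33. The neuronal glutamate transporter gene Slc1a1 had 0.04 and the neutral amino acid transporter gene Slc1a4 had 0.52. Slc1a5 and Slc1a7 passed the floor only in the KO pool, at 91.9 and 90.6 units, and Slc1a6 in neither pool. More of all probe sets reached the floor in the KO pool (63.1%) than in the wild-type pool (56.9%).

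**Figure D2:**
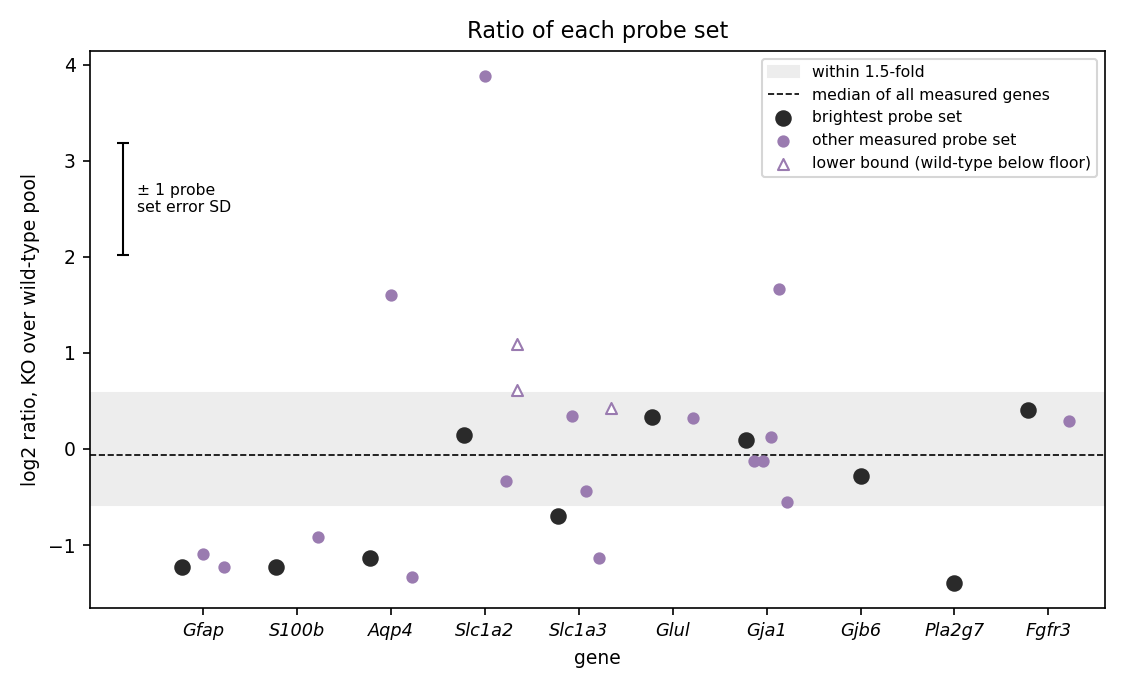
Log2 ratio of the KO pool over the wild-type pool for each probe set of the 10 genes, with large dark points for the brightest probe set, small points for other measured ones and open triangles for lower bounds where the wild-type signal was below the floor. The grey band is within 1.5-fold, the dashed line is the median of all measured genes (-0.06) and the bar at the left is 1 SD of the probe set error (0.58) either way. Probe sets of Gfap and S100b cluster near -1, while those of Aqp4, Slc1a2 and Gja1 reach up to 1.60, 3.88 and 1.66.

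Gja1, the gene of connexin 43, the main gap junction protein of astrocytes, was nearly even between the pools by its 4 brighter probe sets. The brightest gave 10324.8 units in the KO pool and 9606.1 units in the wild-type pool, a log2 ratio of 0.09. The next brightest, 1415800_at, gave 7744.3 units in the KO pool and 8432.2 units in the wild-type pool, a ratio of -0.13. The following 2 probe sets, 1438945_x_at and 1438650_x_at, had -0.13 and 0.12. Of these 4, the brightest (1437992_x_at) and the last 2 carry the _x suffix, and 1415800_at does not. Without suffixed probe sets the Gja1 ratio was -0.17. The 2 dim Gja1 probe sets disagreed. Probe set 1438973_x_at gave 386.0 units in the KO pool and 121.4 units in the wild-type pool, 3.15-fold higher, and 1415801_at gave 140.2 units in the KO pool and 203.1 units in the wild-type pool, a log2 ratio of -0.55.

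Gjb6, the gene of connexin 30, which also joins astrocytes, had 1 probe set with 2891.8 units in the KO pool and 3484.7 units in the wild-type pool. Its log2 ratio was -0.28, within 1.5-fold. Among 8 other measured connexin, pannexin and junction genes, 1 was lower and 1 higher, and their median was 0.03. Gjb1, a connexin of oligodendrocytes, had -0.84 and Panx2, a pannexin of neurons, had 0.72. Gjb2, another connexin gene, had 604.1 units in the KO pool and 589.5 units in the wild-type pool.

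Fgfr3, a fibroblast growth factor receptor of astrocytes and their precursors, had the highest ratio of the 10 genes by brightest probe set and was still within 1.5-fold. Its brighter probe set gave 3057.9 units in the KO pool and 2289.8 units in the wild-type pool, a log2 ratio of 0.41. The other gave 201.6 units in the KO pool and 163.7 units in the wild-type pool, a ratio of 0.29. Of 13 measured genes among other receptors, ligands and targets of the pathway, 2 were at least 1.5-fold lower and 0 higher, with a median of 0.09. Fgf1, a ligand, had -0.89 by its brightest probe set and -0.13 by the other. Spred1, an inhibitor of the pathway, had -0.61, with its 7 probe sets between -1.37 and 0.40. The feedback inhibitor Spry4 had 0.56, the ligand Fgf9 0.54 with another probe set at -0.52, and the receptor Fgfr1 0.46.

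Over the 27 measured probe sets of the 10 genes, 10 were at least 1.5-fold lower, 3 higher and 14 within 1.5-fold. Over all 20967 measured probe sets with 1 symbol, 18.1% were lower and 16.5% higher. The 3 that were higher, of Aqp4, Slc1a2 and Gja1, were each a probe set other than the gene's brightest. Of 17 such probe sets of the 10 genes, 3 were higher and 5 lower, and over all 8723 such probe sets 22.1% were higher and 18.0% lower. The SD of the log2 ratios was 1.15 over the 27 probe sets and 0.75 over all. The 4 probe sets not measured belonged to Slc1a2 and Slc1a3, 3 of them past the floor only in the KO pool and 1 in neither pool. Over all probe sets other than controls, 63.1% reached the floor in the KO pool and 56.9% in the wild-type pool.

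Among 34 other astrocyte markers, all of them measured, 24 lay within 1.5-fold, 9 were lower and 1 was higher, and the median was -0.12. The shares over all measured genes were 18.2% lower and 12.5% higher. Sparcl1, a secreted matrix protein of astrocytes, had 7377.9 units in the KO pool and 26210.2 units in the wild-type pool, 3.58-fold lower by its single probe set. Dio2, the deiodinase that makes active thyroid hormone, was 2.48-fold lower, with 1274.4 units in the KO pool and 3137.8 units in the wild-type pool and both probe sets below -1.30. Slc39a12, a zinc transporter gene, was 2.10-fold lower. The transcription factor gene Hes5, an effector of Notch signalling, was 1.67-fold higher, with 346.4 units in the KO pool and 205.2 units in the wild-type pool. Atp1b2, a sodium pump subunit of astrocytes, had 0.52 and Slc6a11, a GABA transporter gene, 0.36. Aldh1l1, a folate enzyme used as a general marker of astrocytes, had 1148.1 units in the KO pool and 1112.9 units in the wild-type pool. That was its brightest probe set, a log2 ratio of 0.03, and its other had -0.54. The astrocyte transcription factor gene Sox9 had 730.3 units in the KO pool and 778.9 units in the wild-type pool. That was a log2 ratio of -0.10, and the other Sox9 probe set had 0.83.

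In a list of intermediate filaments other than Gfap and S100 proteins other than S100b, 4 of 11 measured genes were at least 1.5-fold lower and 0 higher, with a median of -0.32. All measured genes had shares of 18.2% lower and 12.5% higher. Another 2 genes of the list, Prph and S100a9, passed the floor only in the wild-type pool, at 78.3 and 86.7 units, and 0 only in the KO pool. S100a1 had 860.6 units in the KO pool and 2703.9 units in the wild-type pool, 3.17-fold lower by its brightest probe set and with its other at -1.87. S100a16 was 2.65-fold lower, with 1131.5 units in the KO pool and 2974.6 units in the wild-type pool. S100a8, a protein of myeloid cells, had 84.6 units in the KO pool and 139.5 units in the wild-type pool, close to the floor. Vim, the gene of vimentin, had 1300.4 units in the KO pool and 2044.1 units in the wild-type pool, a ratio of -0.66, with its 3 probe sets between -1.76 and -0.66. The filament gene Synm had 0.55, the small S100 gene S100a4 0.49 and Nes, the nestin gene, 0.39.

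**Figure D3:**
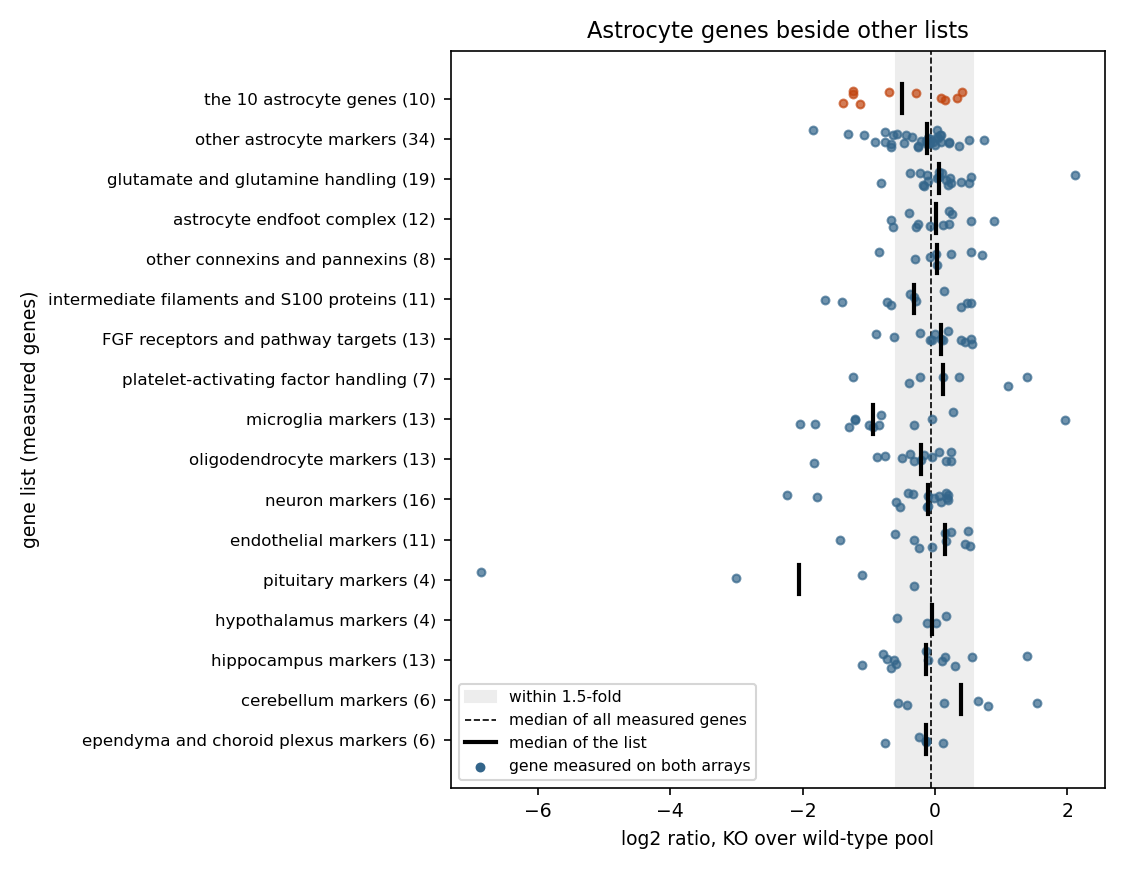
Log2 ratio of the KO pool over the wild-type pool for the measured genes of each list by brightest probe set, with the 10 astrocyte genes in the top row, a black bar at each list's median and the number of measured genes in brackets. The grey band is within 1.5-fold and the dashed line is the median of all measured genes. The median of the 10 genes is -0.49, that of the other astrocyte markers -0.12 and that of the microglia markers -0.93, while the pituitary row reaches -6.87.

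Markers of other cells and regions also differed between the pools. Microglia markers had 9 of 13 measured genes lower and 1 higher, and the defining marker Itgam was below the floor in both pools. Their summed signals over the 15 on the array were 14001 units in the KO pool and 17357 units in the wild-type pool. The largest part of both sums was Csf1r, with 7830.1 units in the KO pool and 6389.8 units in the wild-type pool. The 12 pituitary markers on the array had a summed signal of 1929 units in the KO pool and 33862 units in the wild-type pool. Most of the wild-type sum was Gh, the growth hormone gene, with 200 units in the KO pool and 23222.9 units in the wild-type pool. Of the 12 markers, 4 were measured, and 3 of these were at least 1.5-fold lower, while the thyrotropin gene Tshb was within 1.5-fold (72.7 units in the KO pool and 89.2 units in the wild-type pool). Another 4 passed the floor only in the wild-type pool, and Fshb, Pitx1, Tbx19 and Lhx3 were below it in both. S100b is known to be made by folliculostellate cells of the pituitary as well. The part of these cells in the ratios of Gfap, S100b, Aqp4 and Pla2g7 was not tested.

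Other marker lists had median log2 ratios from -0.21 (oligodendrocyte) to 0.4 (cerebellum). Over all measured genes, 18.2% were lower and 12.5% higher. Oligodendrocyte markers had 3 of 13 measured genes lower and 0 higher, with summed signals of 73240 units in the KO pool and 84628 units in the wild-type pool. Neuron markers had 2 of 16 lower, the neurofilament genes Nefm (-2.24) and Nefl (-1.78), and 0 higher, with sums of 145046 units in the KO pool and 164842 units in the wild-type pool. Endothelial markers had 2 of 11 lower and 0 higher, with sums of 15123 units in the KO pool and 12539 units in the wild-type pool and Pecam1 below the floor in both. Hippocampus markers had 6 of 13 lower and 1 higher, with sums of 11060 units in the KO pool and 13411 units in the wild-type pool. Cerebellum markers had 0 of 6 lower and 3 higher, with the defining Gabra6 below the floor in both pools. Hypothalamus markers had 0 of 4 lower and 0 higher. Ependyma and choroid plexus markers had 1 of 6 lower and 0 higher, with Foxj1 below the floor in both. Another 2 of these markers passed the floor only in the wild-type pool, and 0 only in the KO pool. Ccdc153 had 17.1 units in the KO pool and 172.8 units in the wild-type pool, at least 2.71-fold lower. Tmem212 had 54.7 units in the KO pool and 94.6 units in the wild-type pool.

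Gfap, S100b and Pla2g7 kept a ratio of -0.92 or lower under each setting that could give one, and Aqp4 did so except by its second brightest probe set. Slc1a3 was within 1.5-fold with quantile normalization (-0.51) and by the median of its probe sets (-0.57). Slc1a2 ran from 0.05 to 0.37 except by its second brightest probe set, which was the one at 3.88.

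**Figure D4:**
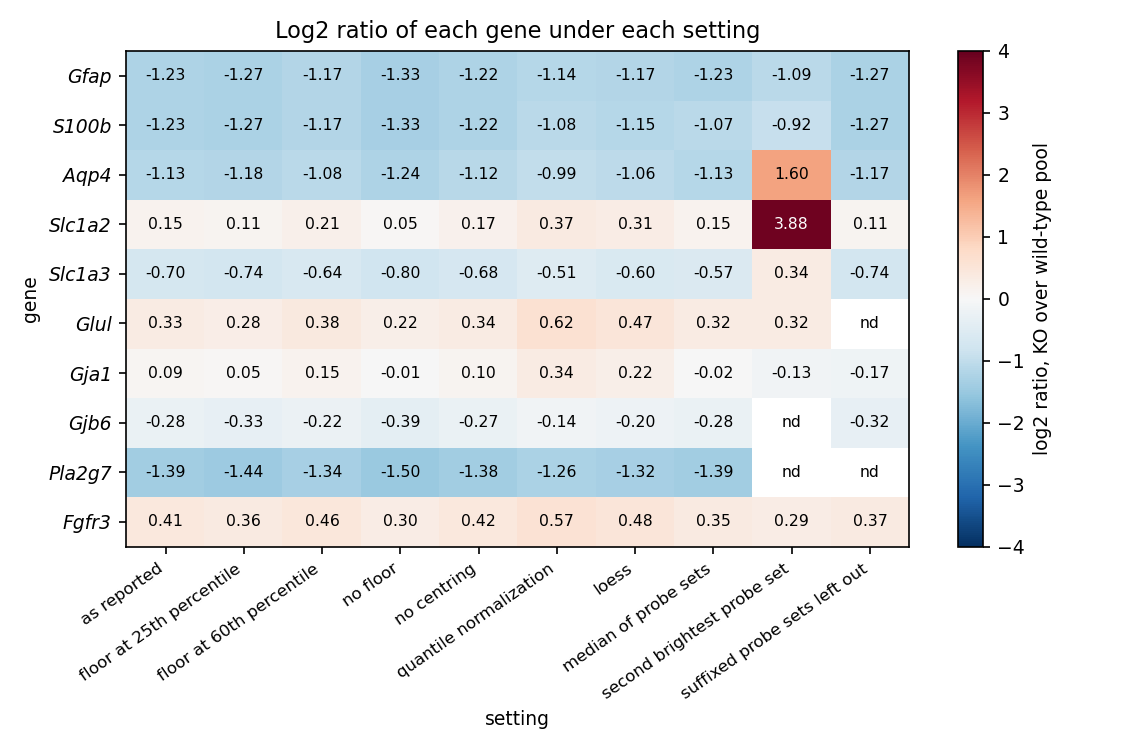
Log2 ratio of the KO pool over the wild-type pool for each of the 10 genes (rows) under each setting (columns), blue where lower and red where higher in the KO pool, with nd where no probe set was left. The column for the second brightest probe set holds the values that turn, 1.60 for Aqp4, 3.88 for Slc1a2 and 0.34 for Slc1a3.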

How the data were processed

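Total RNA was extracted with Trizol and labelled as biotinylated cRNA from 5 micrograms, per the labels' protocols. The deposited values are intensities on a linear scale. The submitters' processing notes name GCOS, the Affymetrix software, and detection calls were not used here. The mean after trimming 2% at either end was 500.0 on both arrays, so they had been scaled before deposit.

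Of 45101 probe sets, 64 were controls, and the platform annotation gave 1 gene symbol for 34945 of the others, several for 932 and none for 9160. Gene identifiers in the RefSeq table of GRCm38.p6 gave a current symbol for 34741 of the 34945. The log2 ratio was centred by subtracting 0.01, its median over the 23928 probe sets at or above the floor on both arrays. Each gene was read by its brightest probe set, by mean log2 signal over the arrays. The probe set error came from the 2 brightest measured probe sets of 5375 genes, as the SD of their difference divided by the square root of 2. A lower bound sets the floor in place of a signal below it.

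No p-value was calculated, since precision is limited by having 1 array per group. The members and lists were chosen with earlier results of these data known. Genes named are the 10 members with all their probe sets, up to 3 genes at either end of each list, defining markers below the floor, and Gnmt. Aldh1l1, Sox9, Vim, Dag1, Slc1a1, Slc1a5, Slc1a6, Slc1a7 and Gjb2 were named in addition after their values were seen. As alternatives, the floor was moved to the 60th or the 25th percentile or dropped (signals below 1 became 1). Ratios were left uncentred, or quantile or loess normalization (fraction 0.3) was used. Genes were also read by the median or the second brightest of their probe sets, or without suffixed probe sets. The calculations were tested on simulated data. Software was Python 3.11.15 with pandas 2.3.3, numpy 2.4.6, matplotlib 3.10.9, statsmodels 0.14.6 and scipy 1.17.1.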

Additional observations from a re-analysis of the deposited data

How the results depend on the processing

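Over 8 of 9 alternatives, 4 or 5 of the genes measured were at least 1.5-fold lower and their median log2 ratio lay between -0.59 and -0.32, with -0.32 from quantile normalization. Of all measured genes, 15.2% to 27.2% were lower under these alternatives. The remaining one, the second brightest probe set, which 8 genes had, gave 2 genes lower (Gfap and S100b), 2 higher (Slc1a2 and Aqp4) and a median of 0.31. It turned Aqp4 to 1.60 and Slc1a3 to 0.34 and moved Slc1a2 to 3.88. Among all 5375 genes read this way, the share lower was 19.1% and the share higher 19.4%. With quantile normalization 1 gene was at least 1.5-fold higher, Glul at 0.62, where 13.4% of all measured genes were. As reported, 10 of 27 probe sets were at least 1.5-fold lower and 3 higher. Over all measured probe sets with 1 symbol, 18.1% were lower and 16.5% higher. With the floor at the 25th percentile the counts were 11 and 6 of 30, against 20.4% and 18.2%. With no floor they were 12 and 6 of 31, against 26.7% and 24%. Without suffixed probe sets they were 8 and 1 of 14, against 18.7% and 16.5%. Which probe sets track the transcripts of Aqp4, Slc1a2 and Slc1a3 was not tested. No paired analysis was possible because each group had 1 array. Dim probe sets of Slc1a2 and Slc1a3, near the floor of 64.2 units, limit the counts with a lower floor or none. The probe sets that turned Aqp4 and Slc1a3 and moved Slc1a2 had 219.5 units or more on both arrays.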

Other observations

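A probe set annotated to both Gm13872 and Slc1a2 was left out of the gene values. It gave 28.2 units in the KO pool and 4.7 units in the wild-type pool, both below the floor.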
